A study of Mus musculus with 6 samples.

Results

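The 10 genes described here encode the cochaperones PIH1D1 and RPAP3, the chaperone subunits TELO2, TTI1 and TTI2, and the kinases MTOR, ATM, ATR, PRKDC and SMG1. They were chosen by name, and all 10 were found among the 35148 genes of the deposited table. All libraries came from the paraventricular nucleus of the hypothalamus (PVH) of Ruvbl2fl/fl mice, whose Ruvbl2 alleles are flanked by loxP sites in both groups. In 3 libraries the PVH had been injected with AAV2-Cre-GFP, an adeno-associated virus that carries Cre recombinase and GFP, and in 3 with AAV2-GFP, which lacks Cre; tissue was taken after 8 weeks of infection. The sources used here do not give the animals' strain, sex and age, the promoter driving Cre, the cells it reached or any pooling of animals. The labels do not state that libraries came from separate animals, so the p-values rest on variation among these libraries, which may be technical.

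RUVBL1 and RUVBL2 are AAA+ ATPases that join PIH1D1 and RPAP3 to form R2TP, a cochaperone of HSP90. R2TP works with the TTT complex of TELO2, TTI1 and TTI2 in folding and assembling the phosphatidylinositol 3-kinase-related kinases (PIKKs), very large serine/threonine kinases that respond to nutrients, DNA damage and faulty mRNA. In mammalian cells, loss of TTT or RUVBL proteins is known for lowering PIKK protein; the measurement here is of mRNA only. In neurons MTOR governs protein synthesis and growth, and ATM is the kinase lost in ataxia telangiectasia.

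Ruvbl2, the gene whose deletion Cre would bring about, did not fall in the AAV2-Cre-GFP libraries. It stood at 9.53, 9.10 and 9.51 FPKM (fragment counts scaled by gene length and library size) in Cre-labelled libraries 1 to 3, against 9.90, 7.36 and 8.72 FPKM in GFP-labelled libraries 1 to 3. The groups overlapped, and the log2 difference was 0.077 ± 0.11 (SE; edgeR adjusted p = 0.773; two-sided exact permutation test of FPKM p = 0.5, where the smallest possible is 0.1). A value per gene cannot tell a transcript that lost the floxed part from an intact transcript. The partner gene Ruvbl1 stood at 16.09, 14.04 and 13.94 FPKM in Cre-labelled and 11.7, 12.7 and 13.8 FPKM in GFP-labelled libraries, with a log2 difference of 0.17 ± 0.093 (SE; edgeR adjusted p = 0.405). Because the target does not separate the groups, directions here refer to the libraries as labelled.

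Several RNAs outside the R2TP pathway differed with the group or with 1 or 2 libraries. Total counts ran from 41890769 to 54702785 in Cre-labelled and from 42003794 to 49414012 in GFP-labelled libraries. The ribosomal RNA model CT010467 was at 17630, 13490 and 7301 CPM (counts scaled by the library total) in Cre-labelled libraries 1 to 3, against 2072 to 2219 CPM in GFP-labelled libraries. The summed level of 10 kidney genes was 521 and 563 CPM in Cre-labelled libraries 2 and 3, while the other 4 libraries had 29.0 to 59.1 CPM. Testis transcripts (10 genes) came to 547 CPM in GFP-labelled library 1, while the other 5 had 6.14 to 10.3 CPM. Skeletal muscle transcripts (10 genes) reached 246 CPM in Cre-labelled library 3, and the other 5 had at most 26.7 CPM. Pituitary transcripts (4 genes) came to 31.8 CPM in GFP-labelled library 2, while the other 5 had 1.91 to 8.55 CPM. Where 3 libraries with other-organ transcripts are left out below, these are the ones with kidney, testis or muscle transcripts. GFP-labelled library 2 is kept there. The labelled tissue was checked with 6 PVH markers, Oxt, Avp, Crh, Trh, Sim1 and Otp, all detected, which summed to 222 to 521 CPM in Cre-labelled and 286 to 730 CPM in GFP-labelled libraries. All 6 had a log2 difference below 0 (median -0.764); 0 passed in edgeR, 3 had an unadjusted p under 0.05 and DESeq2 called 2. Those were Crh (DESeq2 adjusted p = 0.00379) and Otp, whose groups overlapped (DESeq2 adjusted p = 0.00619). Crh stood at 4.69, 3.55 and 4.56 FPKM in Cre-labelled and 6.07, 7.53 and 9.10 FPKM in GFP-labelled libraries. Its Cre-labelled values lay below without overlap, as for 8.80% of tested genes. The 8 neuron markers summed to 4255 to 4494 CPM in Cre-labelled and 4888 to 4998 CPM in GFP-labelled libraries, and the 6 astrocyte markers to 1738 to 1958 CPM and 1547 to 1660 CPM in the same order. Of 6 ependymal markers 5 were above 0 (median of the list 0.488), each without overlap between groups, as for 14.1% of tested genes. In this list 0 passed in edgeR, 5 had an unadjusted p under 0.05 and DESeq2 called 3. The marker below 0 was Rsph1 (-0.524). It stood at 35.4 FPKM in GFP-labelled library 1, the library with testis transcripts, and at 15.2 FPKM or less elsewhere. The part of testis transcripts in that value was not tested. All 7 thalamus markers, like the PVH markers, had a log2 difference below 0 (median -0.314). Of these 0 passed in edgeR, 2 had an unadjusted p under 0.05 and DESeq2 called 1. GFP-labelled library 1 had the highest thalamus sum, 790 CPM, and the lowest PVH sum of its group, 286 CPM. The part of these shifts in the members' values was not tested. In bulk tissue the share of each cell type or region and the RNA per cell cannot be told apart.

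By edgeR's quasi-likelihood test 0 of the 10 members had an adjusted p under 0.05, and the count was also 0 in DESeq2 and in limma on log2 FPKM. All 10 passed the filter on low counts. Among all 20865 tested genes 2 passed in edgeR, or 0.00959%. DESeq2 called 8.03% of the genes to which it gave an adjusted p, 3.12% higher and 4.91% lower in Cre-labelled libraries. At an unadjusted edgeR p under 0.05 there was 1 member, Tti2, higher in Cre-labelled libraries, beside 17.2% of all tested genes, 8.11% higher and 9.11% lower. The FPKM values of the groups did not overlap for 2 members, Tti2 above and Prkdc below, beside 22.9% of all tested genes. In CPM after TMM scaling the groups stood apart for Mtor and Prkdc, both below, and overlapped for Tti2. The share of all tested genes was not computed on that scale. Of the 10 log2 differences 8 were below 0, with a median of -0.057, while 49.0% of all tested genes were above 0, with a median of -0.006. Scaling by library totals instead of TMM (trimmed mean of M-values) factors gave 5 members above 0 and a median of -0.009, but it moved the median of all genes alike, to 0.041, so the members lay below that median by a similar amount under both scalings.

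**Figure D1:**
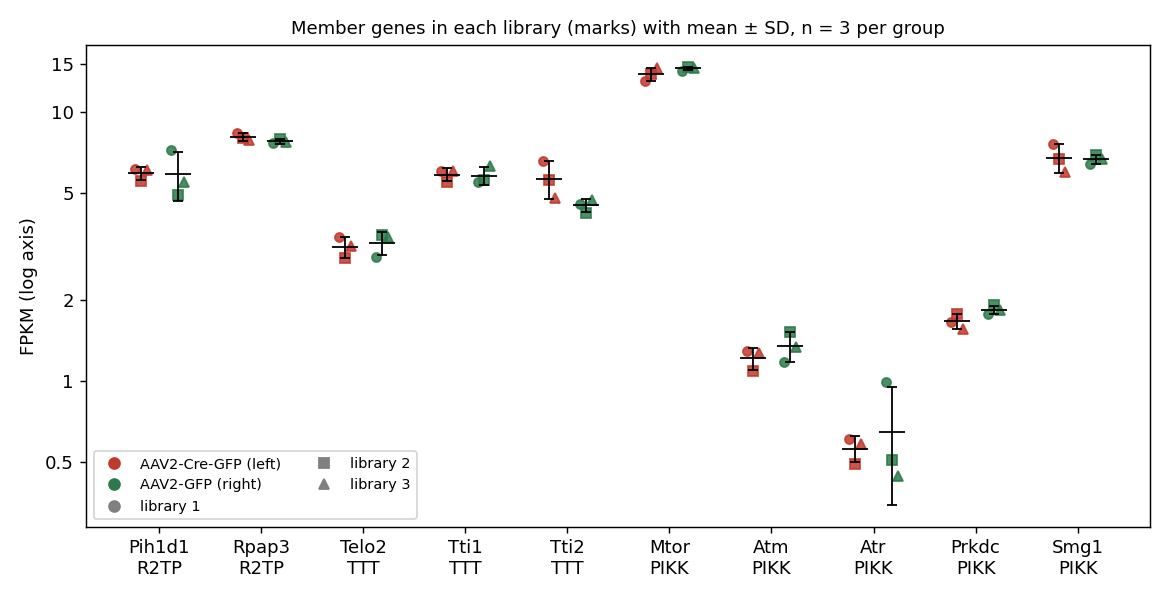
FPKM (log axis) of the 10 member genes in each library, AAV2-Cre-GFP left and AAV2-GFP right of each pair; the horizontal marks and bars are the mean and SD of 3 libraries. Mtor lies highest, from 13.0 to 14.7 FPKM, and Atr lowest, with GFP-labelled library 1 at 0.996 FPKM above the other libraries.

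The members covered a wide range of levels per length. Mtor averaged 14.1 FPKM over the 6 libraries, more than 85.6% of tested genes, and was followed by Rpap3 at 7.92 FPKM; the ranges of these genes did not overlap. Next came Smg1 at 6.71, Pih1d1 at 5.90, Tti1 at 5.82 and Tti2 at 5.07 FPKM, and each neighbouring pair in this run overlapped, the upper gene being higher in 4 of 6 libraries. Telo2 at 3.21, Prkdc at 1.75, Atm at 1.28 and Atr at 0.606 FPKM followed, each below its upper neighbour in all 6 libraries with no overlap. Per length, the transcripts of the 3 DNA damage kinases were therefore the lowest of the members, and that of the nutrient-responsive kinase the highest. This order rests on the gene length used: annotated exons cover 23629 bases for Atr and 2020 for Pih1d1. In CPM after TMM scaling Atr ran from 12.55 to 27.72 and Pih1d1 from 11.71 to 17.12. On that scale Smg1 ran from 164.3 to 205.2 and Mtor from 147.6 to 173.7. Among the 5 kinases Mtor made up 57.5% ± 3.51 of the summed FPKM in Cre-labelled and 58.0% ± 0.541 in GFP-labelled libraries (SD, n = 3), and Smg1 28.2% ± 3.26 and 26.7% ± 0.553 in the same order.

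PIH1D1 is the R2TP subunit whose PIH domain binds the phosphorylated TELO2 protein. Its gene (ENSMUSG00000003423) spans 45154303 to 45160065 of chromosome 7 (GRCm38, plus strand), 261695 bases from Ruvbl2. Pih1d1 stood at 6.16, 5.55 and 6.07 FPKM in Cre-labelled libraries 1 to 3, against 7.21, 4.90 and 5.51 FPKM in GFP-labelled libraries 1 to 3. The Cre-labelled values fell inside the range of the GFP-labelled ones, which was wide. Its log2 difference was -0.024 ± 0.15 (SE; edgeR adjusted p = 0.959), with an unadjusted 95% interval from a 23.2% decrease to a 26.0% increase. GFP-labelled library 1 was the highest and GFP-labelled library 2 the lowest for Pih1d1 and for Ruvbl2 alike, and without GFP-labelled library 1, the library with testis transcripts, the Pih1d1 difference was 0.14. At its 5' end Pih1d1 shares 149 exonic bases with Aldh16a1 on the opposite strand, and whether counting used strand is not stated in the sources used here.

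RPAP3 carries the TPR domains that bind HSP90 and links the chaperone to the RUVBL ring. Rpap3 (ENSMUSG00000022466; minus strand of chromosome 15, 97675097 to 97705825) was the steadiest member. It stood at 8.36, 7.99 and 7.84 FPKM in Cre-labelled and at 7.64, 7.96 and 7.73 FPKM in GFP-labelled libraries. The groups overlapped, and its log2 CPM after TMM scaling spanned 0.070 over the 6 libraries, a range smaller than that of all but 0.13% of tested genes. The root-mean-square deviation of 0.026 was below the SD of 0.039 (log2) that counting alone would give at its 1239 to 1609 counts. Rpap3 had a log2 difference of 0.015 ± 0.069 (SE; edgeR adjusted p = 0.941), and its interval ran from a 9.57% decrease to a 12.9% increase. Of the 31-base words of its transcripts 10.8% also occur in the gene model Gm5697, which had 0.191 CPM in GFP-labelled library 2 and no count in the other 5 libraries.

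TELO2 is the TTT subunit that contacts the kinases and, once phosphorylated, PIH1D1. Telo2 (ENSMUSG00000024170; minus strand of chromosome 17, 25099570 to 25115967) stood at 3.42, 2.87 and 3.17 FPKM in Cre-labelled libraries, against 2.89, 3.49 and 3.42 FPKM in GFP-labelled libraries. Its groups overlapped, with a log2 difference of -0.09 ± 0.10 (SE; edgeR adjusted p = 0.70). TTI1 is the scaffold of TTT, a long repeat protein that holds the complex together. Tti1 (ENSMUSG00000027650; minus strand of chromosome 2, 157981803 to 158028433) stood at 6.04, 5.47 and 6.03 FPKM in Cre-labelled libraries and at 5.50, 5.58 and 6.29 FPKM in GFP-labelled libraries. It too overlapped between groups, with a log2 difference of -0.025 ± 0.087 (SE; edgeR adjusted p = 0.918), and an interval from a 14.5% decrease to a 13.0% increase; that of Telo2 ran from -0.32 to 0.14 on the log2 scale.

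TTI2 completes the TTT complex. Tti2 (ENSMUSG00000031577; plus strand of chromosome 8, 31150315 to 31164702) stood at 6.60, 5.56 and 4.78 FPKM in Cre-labelled libraries 1 to 3, against 4.54, 4.22 and 4.71 FPKM in GFP-labelled libraries 1 to 3. In FPKM the groups stood apart with the Cre-labelled one on top, as for 14.1% of tested genes, by a narrow gap between the libraries numbered 3; in CPM after TMM scaling Cre-labelled library 3 (33.15) was below GFP-labelled library 3 (33.7). Its log2 difference was 0.29 ± 0.12 (SE; unadjusted interval from a 1.68% to a 47.05% increase), with an edgeR adjusted p of 0.257. It was 0.19 without Cre-labelled library 1 and 0.41 without Cre-labelled library 3. Within the Cre-labelled group Tti2 and CT010467 had the same order of libraries, and the part of that RNA in the Tti2 values was not tested. GFP-labelled library 2, the lowest for Tti2, was the one with pituitary transcripts and was kept in the comparison that follows. When the 3 libraries with kidney, muscle or testis transcripts were left out, which leaves 1 Cre-labelled against 2 GFP-labelled libraries, Tti2 was at 0.51 (edgeR adjusted p = 0.0343). In that setting 1059 of 22015 genes were called, or 4.81%, with 1.24% called higher, so calls were more common there among all genes too; the lone library, Cre-labelled library 1, is there assumed to vary like the others. The 3' part of Tti2 shares 882 exonic bases with Mak16 on the opposite strand, and Mak16 stood at 6.56, 6.67 and 6.59 FPKM in Cre-labelled libraries, against 7.48, 6.85 and 7.00 FPKM in GFP-labelled libraries (log2 difference -0.14 ± 0.089, SE; edgeR adjusted p = 0.462). The shared bases' part in either value was not tested.

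The shares of the TTT subunits varied between libraries. Tti2 was 41.1, 40.0 and 34.2% of the summed TTT FPKM in Cre-labelled libraries 1 to 3 and 35.1, 31.8 and 32.7% in GFP-labelled libraries 1 to 3, so the groups overlapped through the value of 34.2%. Tti1 was 40.0% ± 2.83 in Cre-labelled and 42.7% ± 0.807 in GFP-labelled libraries (SD, n = 3), and Telo2 21.5% ± 1.04 and 24.1% ± 1.96 in the same order.

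**Figure D2:**
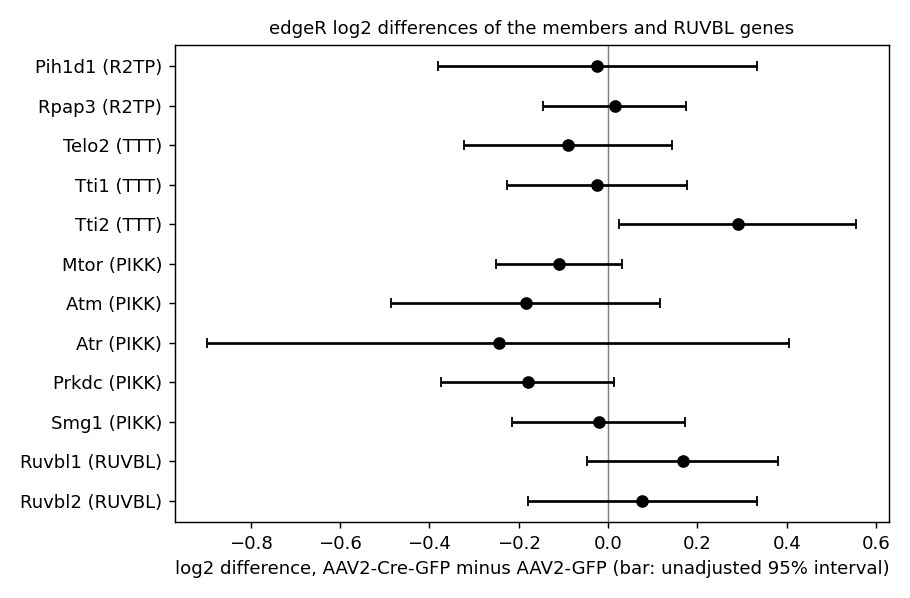
Log2 difference of each member and of Ruvbl1 and Ruvbl2, AAV2-Cre-GFP minus AAV2-GFP, from edgeR, with unadjusted 95% intervals as bars. The interval lies wholly above 0 for Tti2 (0.024 to 0.56) and spans 0 for the other 9 members, most widely for Atr (-0.90 to 0.41).

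MTOR is the catalytic subunit of mTORC1 and mTORC2, which set protein synthesis, autophagy and cell growth by nutrient and hormone signals. Mtor (ENSMUSG00000028991; plus strand of chromosome 4, 148448611 to 148557683) stood at 13.0, 13.8 and 14.5 FPKM in Cre-labelled libraries 1 to 3, against 14.2, 14.7 and 14.5 FPKM in GFP-labelled libraries 1 to 3, from 6361 to 9336 counts. The FPKM ranges overlapped. In CPM after TMM scaling the Cre-labelled values of 147.6, 161.8 and 168.4 all lay below the GFP-labelled values of 168.5, 173.7 and 173.4. The nearest pair there was 168.4 and 168.5, and how many of all tested genes stand apart on that scale was not computed. The difference was -0.11 ± 0.061 on the log2 scale (SE; edgeR adjusted p = 0.408), with an interval from -0.25 to 0.032. Cre-labelled library 1 was the lowest, and without it the difference was -0.048. Neuron markers, summed as above, were lower in the same 3 libraries, and their part in the Mtor values was not tested.

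SMG1 phosphorylates UPF1 and thereby drives nonsense-mediated mRNA decay (NMD), the removal of transcripts with early stop codons. Smg1 (ENSMUSG00000030655; minus strand of chromosome 7, 118131308 to 118243637) stood at 7.60, 6.67 and 5.97 FPKM in Cre-labelled libraries 1 to 3, against 6.40, 6.93 and 6.67 FPKM in GFP-labelled libraries 1 to 3. The Cre-labelled libraries held both the highest and the lowest value. Within that group Smg1, Tti2 and Rpap3 had the library order of CT010467. Mtor had the reverse order and the remaining members had other orders. Whether that RNA has a part in these values was not tested. Its log2 difference was -0.021 ± 0.083 (SE; edgeR adjusted p = 0.929), between a 13.8% decrease and a 12.7% increase. It was -0.092 without Cre-labelled library 1 and 0.074 without Cre-labelled library 3.

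PRKDC is the catalytic subunit of DNA-PK, which joins broken DNA ends. Prkdc (ENSMUSG00000022672; plus strand of chromosome 16, 15637866 to 15842235) stood at 1.66, 1.77 and 1.57 FPKM in Cre-labelled libraries 1 to 3, against 1.78, 1.91 and 1.84 FPKM in GFP-labelled libraries 1 to 3. Every Cre-labelled library was below every GFP-labelled one, as for 8.80% of tested genes, the nearest pair being 1.773 and 1.775 FPKM. Prkdc had a log2 difference of -0.18 ± 0.084 (SE; edgeR adjusted p = 0.323), with an interval from a 22.8% decrease to a 0.961% increase. With each library left out in turn it stayed between -0.22 and -0.12.

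ATM is activated by DNA breaks and also acts in redox sensing. Atm (ENSMUSG00000034218; minus strand of chromosome 9, 53439149 to 53536740) stood at 1.30, 1.09 and 1.27 FPKM in Cre-labelled libraries, against 1.18, 1.53 and 1.34 FPKM in GFP-labelled libraries. The groups overlapped, with a log2 difference of -0.18 ± 0.13 (SE; edgeR adjusted p = 0.514) and an interval from a 28.5% decrease to an 8.39% increase. It was -0.089 without GFP-labelled library 2, its highest library, and -0.10 without Cre-labelled library 2, its lowest.

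ATR, which responds to stalled replication forks, had the most variable transcript of the members. Atr (ENSMUSG00000032409; plus strand of chromosome 9, 95857597 to 95951644) stood at 0.610, 0.492 and 0.584 FPKM in Cre-labelled libraries 1 to 3, against 0.996, 0.508 and 0.445 FPKM in GFP-labelled libraries 1 to 3. GFP-labelled library 1 held 1198 counts and the other 5 libraries 584 to 884. That library was the one with testis transcripts, at 547 CPM for the list of 10 genes, and the part of these in the Atr value was not tested. The log2 difference was -0.24 ± 0.28 (SE; edgeR adjusted p = 0.709) and turned to 0.195 ± 0.13 (SE; edgeR adjusted p = 0.529) without GFP-labelled library 1. Antisense models overlap both ends of Atr, Gm16794 with 462 shared exonic bases and 1700065D16Rik with 726. These models were low: Gm16794 ran from 1.58 to 1.85 CPM in Cre-labelled and from 1.31 to 2.65 CPM in GFP-labelled libraries, and 1700065D16Rik reached at most 0.594 CPM, in GFP-labelled library 1.

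**Figure D3:**
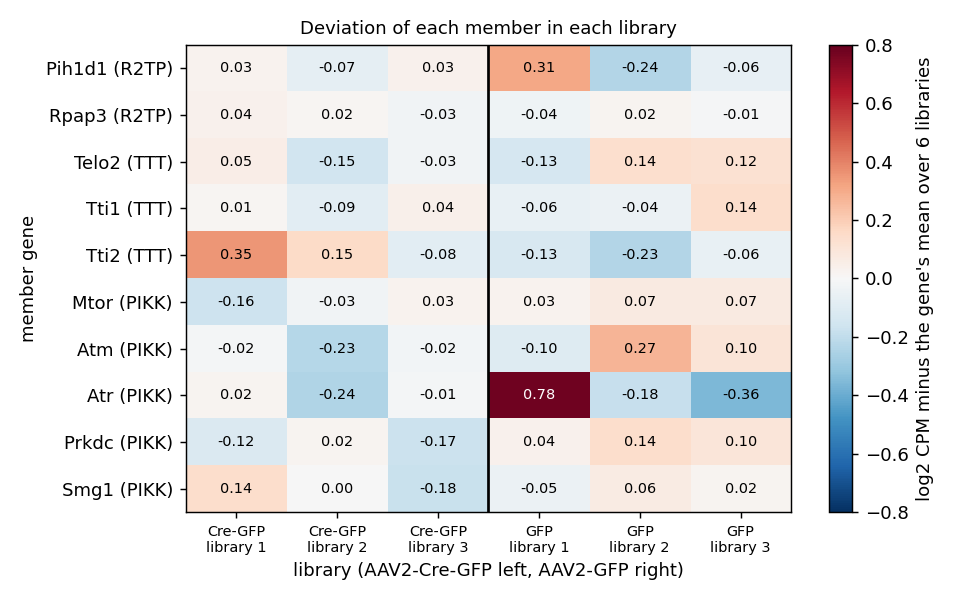
Deviation of log2 CPM (TMM-scaled) from each gene's mean over the 6 libraries, 1 row per member, AAV2-Cre-GFP libraries left and AAV2-GFP libraries right of the line. The largest deviation is Atr in GFP-labelled library 1 (0.78), followed by Atr in GFP-labelled library 3 (-0.36) and Tti2 in Cre-labelled library 1 (0.35), and the Rpap3 row stays within 0.035.

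No library was high for all members. Cre-labelled library 1 held the highest value for 3 members (Rpap3, Tti2 and Smg1) and Cre-labelled libraries 2 and 3 for none, while GFP-labelled libraries 1, 2 and 3 held it for 2, 4 and 1 members. The lowest value fell in Cre-labelled library 2 for 3 members (Telo2, Tti1 and Atm). All 5 kinases had a log2 difference below 0 after TMM scaling, from -0.24 to -0.021, beside 49.0% of all tested genes above 0. But Smg1 was at 0.027 with scaling by library totals, and Atr at 0.195 without GFP-labelled library 1. The summed FPKM of the 5 kinases was 24.2, 23.8 and 23.9 in Cre-labelled and 24.6, 25.6 and 24.8 in GFP-labelled libraries. These sums did not overlap. Among single tested genes every Cre-labelled FPKM was below every GFP-labelled one for 8.80%, but no such share was computed for sums of 5 genes. Most of each sum came from Mtor and Smg1, whose FPKM ranges each overlapped between groups.

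**Figure D4:**
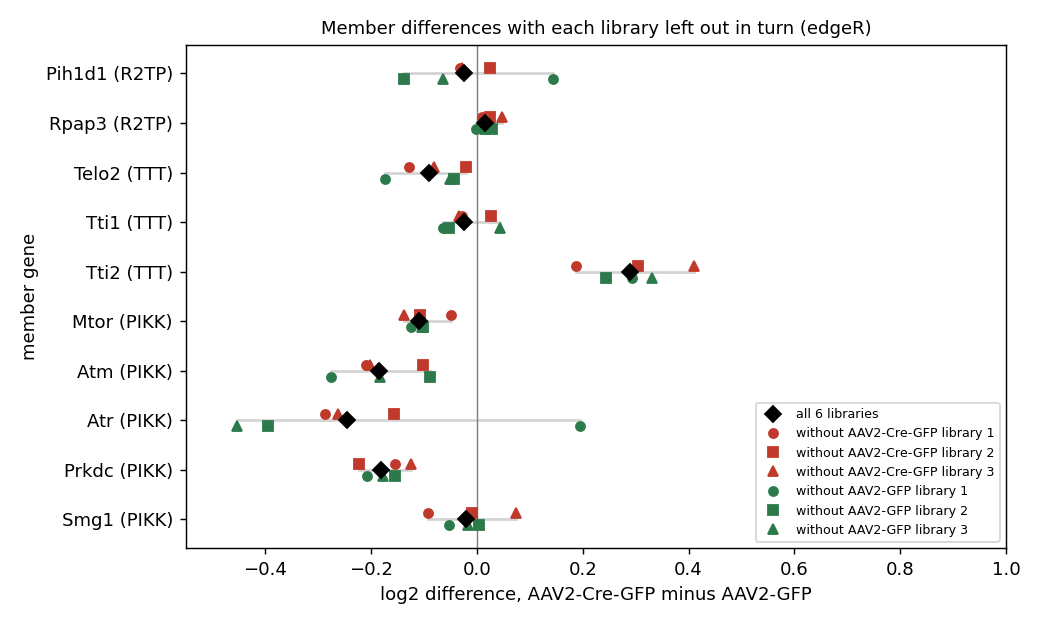
Log2 difference (AAV2-Cre-GFP minus AAV2-GFP, edgeR) of each member with all 6 libraries (diamonds) and with each library left out in turn (red marks, a Cre-labelled library left out; green marks, a GFP-labelled one). Tti2 stays above 0 (0.19 to 0.41), Telo2, Mtor, Atm and Prkdc stay below 0, and Atr runs from -0.45 to 0.195.

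The gene with the most similar profile to each member was found among 14279 or 14280 other genes averaging 1 FPKM or more, by the root-mean-square difference of centred log2 CPM over the 6 libraries. It was Ctbp1 for Rpap3 (0.0095), Lman2l for Telo2 (0.011), Map2k4 for Prkdc (0.014) and Pdgfa for Mtor (0.018). For Tti1, Smg1 and Pih1d1 it was Elk4 (0.024), Marchf7 (0.025) and Atf1 (0.029), and for Atm, Tti2 and Atr it was Spata13 (0.038), Rbm18 (0.045) and Larp7 (0.058). No member was the nearest gene of another member, but Atr, averaging under 1 FPKM, was not among the candidates. With so many candidates this does not show that the members vary independently.

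The other parts of the R2TP machinery also held no gene past the threshold. Of 12 tested partners of R2TP, among them the RUVBL genes and the prefoldin-like subunits that bind it in the PAQosome, 8 were above 0 (median 0.055), and 0 passed in edgeR or DESeq2 and 1 had an unadjusted p under 0.05. That gene was Pdrg1, a subunit of the prefoldin-like module, at 17.9, 13.1 and 11.6 FPKM in Cre-labelled libraries 1 to 3, against 9.21, 10.2 and 11.3 FPKM in GFP-labelled libraries 1 to 3 (log2 difference 0.42 ± 0.16, SE; edgeR adjusted p = 0.228). Like Tti2 and Ruvbl1 it was highest in Cre-labelled library 1. Of 9 genes of the HSP90 machinery 5 were above 0 (median 0.01) and 0 passed in either tool, with 1 at an unadjusted p under 0.05. Hsp90ab1, the constitutive HSP90, stood at 414 ± 10.7 FPKM in Cre-labelled and 441 ± 13.8 FPKM in GFP-labelled libraries (SD, n = 3; edgeR adjusted p = 0.261), and Ptges3, the HSP90 cochaperone p23, at 27.1 ± 1.73 and 29.4 ± 2.04 FPKM in the same order (edgeR adjusted p = 0.349).

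Around MTOR, the other 8 subunits of its complexes had a median of 0.038, with 4 above 0; 0 passed in edgeR or DESeq2, and 1 had an unadjusted p under 0.05. This was Rictor, which defines mTORC2, at 3.00, 2.69 and 2.29 FPKM in Cre-labelled libraries 1 to 3, against 2.94, 3.29 and 3.18 FPKM in GFP-labelled libraries 1 to 3 (log2 difference -0.27 ± 0.10, SE; edgeR adjusted p = 0.225). Deptor, an inhibitor that binds MTOR, differed by -0.20 ± 0.13 (SE; edgeR adjusted p = 0.486). Of 21 upstream regulators 13 were above 0 (median 0.037), and 0 passed in edgeR, 5 had an unadjusted p under 0.05, and DESeq2 called 4 higher and 1 lower. The Ragulator genes Lamtor5 and Lamtor1, whose products tether mTORC1 to the lysosome, had the smallest edgeR p among them. Lamtor5 stood at 27.1, 26.3 and 22.8 FPKM in Cre-labelled libraries and 16.5, 16.9 and 18.8 FPKM in GFP-labelled libraries, and Lamtor1 at 12.8, 10.7 and 11.3 FPKM and 7.24, 8.76 and 8.45 FPKM in the same order. Neither pair of groups overlapped, the Cre-labelled values lying above, as for 14.1% of tested genes. The log2 differences were 0.50 ± 0.10 and 0.47 ± 0.097 (SE, edgeR adjusted p = 0.091 and 0.0943, DESeq2 adjusted p = 0.00389 and 0.00226). The other 3 Lamtor genes, named for their place in the same complex after their values were seen, had log2 differences from 0.037 to 0.15. These ran below the differences of Lamtor1 and Lamtor5. The remaining DESeq2 calls, also named after their values were seen, were Sesn1 and Nprl2, higher, and Castor2, lower. Their log2 differences were 0.369, 0.324 and -0.286 (edgeR adjusted p = 0.0946, 0.117 and 0.113, DESeq2 adjusted p = 0.0036, 0.0285 and 0.00283). Of 11 mTORC1 substrates 6 were above 0 (median 0.033), 0 passed in edgeR and 3 had an unadjusted p under 0.05. They included Atg13, a subunit of the autophagy-starting ULK complex, at 19.6 ± 0.453 FPKM in Cre-labelled and 21.9 ± 1.13 FPKM in GFP-labelled libraries (SD, n = 3; edgeR adjusted p = 0.157; the only DESeq2 call in this list, adjusted p = 0.0487). Lpin1, a phosphatidate phosphatase, stood at 7.10 ± 0.263 and 7.95 ± 0.452 FPKM in the same order (edgeR adjusted p = 0.166). The remaining substrate with an unadjusted p under 0.05 was Rps6kb2, named after its value was seen. It was higher in Cre-labelled libraries (log2 difference 0.193 ± 0.080, SE, edgeR adjusted p = 0.277).

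Around the kinases of the DNA damage response, 7 of 15 partners and effectors of ATM and ATR were above 0 (median -0.042), and 0 passed in edgeR and 1 in DESeq2. Chek2, the checkpoint kinase that ATM phosphorylates, was that gene and the only one with an unadjusted edgeR p under 0.05. It stood at 1.12, 1.21 and 0.944 FPKM in Cre-labelled libraries, against 0.408, 0.617 and 0.426 FPKM in GFP-labelled libraries. The Cre-labelled values lay above without overlap, as for 14.1% of tested genes (log2 difference 1.13 ± 0.26, SE, edgeR adjusted p = 0.111, DESeq2 adjusted p = 0.016). Hus1, of the clamp that activates ATR, differed by 0.20 ± 0.091 (SE; edgeR adjusted p = 0.30). Of 9 DNA-PK partners and end-joining genes 8 were above 0 (median 0.18), 0 passed in edgeR or DESeq2, and 1 had an unadjusted p under 0.05. Paxx, which binds Ku, stood at 9.43, 9.44 and 8.38 FPKM in Cre-labelled libraries and 7.81, 6.97 and 7.34 FPKM in GFP-labelled libraries (edgeR adjusted p = 0.225), and Xrcc4, a cofactor of DNA ligase IV, differed by 0.49 ± 0.23 (SE; edgeR adjusted p = 0.339). Prkdc was below 0 while most of its partners were above; whether it differs from them was not tested.

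Of 10 p53 target genes, which lie downstream of ATM and ATR, 8 were above 0 (median 0.14); 0 passed in edgeR, 3 had an unadjusted p under 0.05, and DESeq2 called 2 higher and 1 lower. Cdkn1a, the cyclin-dependent kinase inhibitor p21, stood at 3.31, 3.52 and 2.74 FPKM in Cre-labelled libraries, against 1.64, 1.64 and 1.66 FPKM in GFP-labelled libraries (log2 difference 0.91 ± 0.14, SE; edgeR adjusted p = 0.0705; DESeq2 adjusted p = 4.2e-05). Ccng1, cyclin G1, stood at 14.5, 13.7 and 14.4 FPKM in Cre-labelled libraries and 11.1, 9.92 and 10.1 FPKM in GFP-labelled libraries (log2 difference 0.42 ± 0.067, SE; edgeR adjusted p = 0.0705). For both genes the groups lay apart by more than the spread within them, but neither passed in edgeR. The lower DESeq2 call, named after its value was seen, was Zmat3. It stood at 8.34, 8.68 and 9.37 FPKM in Cre-labelled and 10.23, 10.17 and 10.51 FPKM in GFP-labelled libraries. The Cre-labelled values lay below without overlap, as for 8.80% of tested genes. Its log2 difference was -0.265 ± 0.063 (SE, edgeR adjusted p = 0.113, DESeq2 adjusted p = 0.00808). Summed astrocyte and ependymal markers were higher in the Cre-labelled libraries, and their part in these values was not tested.

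Around SMG1, 9 of 13 NMD factors were above 0 (median 0.023), and 0 passed in edgeR or DESeq2 and 2 had an unadjusted p under 0.05. Magoh, of the exon junction complex, stood at 16.7, 13.6 and 15.7 FPKM in Cre-labelled libraries, against 10.54, 11.85 and 12.03 FPKM in GFP-labelled libraries (log2 difference 0.38 ± 0.13, SE; edgeR adjusted p = 0.196). Smg6, the NMD endonuclease, stood at 11.1, 9.21 and 9.84 FPKM and 8.21, 8.57 and 8.97 FPKM in the same order (log2 difference 0.19 ± 0.073, SE; edgeR adjusted p = 0.25). Of 9 transcripts described as NMD substrates 7 were above 0 (median 0.24), 0 passed in edgeR, 3 had an unadjusted p under 0.05, and DESeq2 called 2. These were Ddit3, the stress factor CHOP, at 12.87, 11.02 and 11.62 FPKM in Cre-labelled and 8.52, 9.15 and 7.31 FPKM in GFP-labelled libraries (edgeR adjusted p = 0.111), and Gas5, a host gene of small nucleolar RNAs, at 28.4, 23.8 and 22.2 FPKM and 16.6, 18.1 and 19.9 FPKM in the same order (edgeR adjusted p = 0.124). Ddit3 is also known as a target of the unfolded protein response. In both genes every Cre-labelled value was above every GFP-labelled one, as for 14.1% of tested genes.

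**Figure D5:**
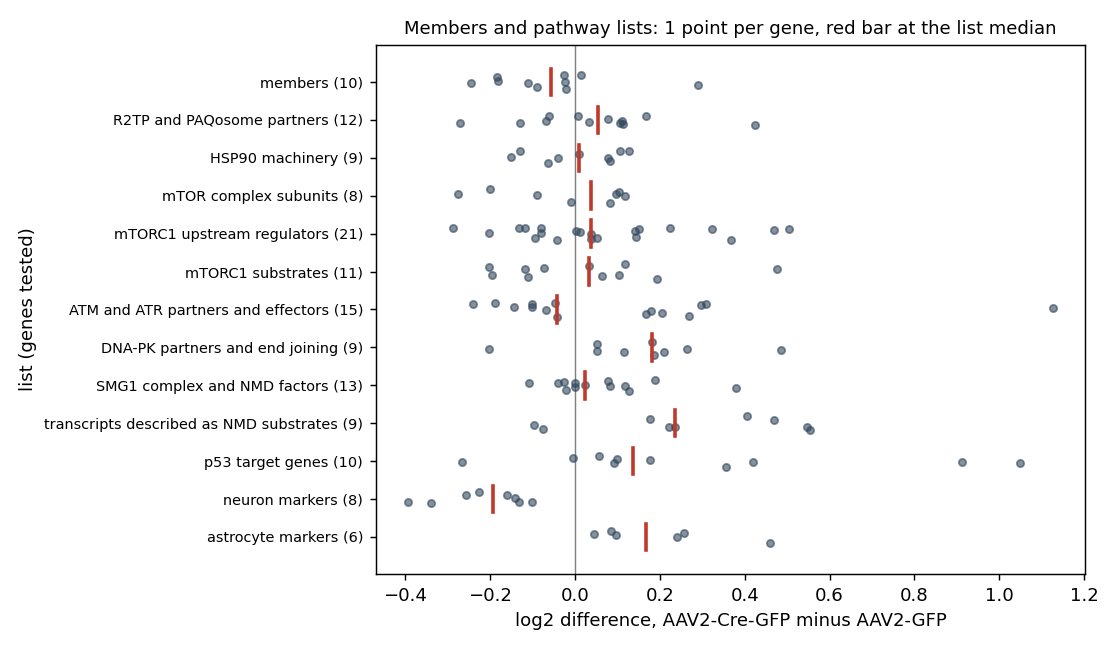
Log2 difference (AAV2-Cre-GFP minus AAV2-GFP, edgeR) of every tested gene in the members, the pathway lists and 2 marker lists; red bars mark list medians and the number in brackets the genes tested. Member values lie between -0.24 and 0.29 with a median of -0.057, and Chek2 at 1.13 lies farthest from 0.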

How the data were processed

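Per the labels' protocols, poly(A) RNA of the PVH was made into stranded libraries with unique molecular identifiers and sequenced from both ends. The tools that the submitters' processing notes name are HISAT2, StringTie and cutadapt; no source used here gives their versions or roles, or whether strand and identifiers were used in counting. The notes name mm9, but 91.4% of 35024 gene identifiers shared with GENCODE M21 have identical start and end positions, so coordinates are given as GRCm38; Smg1 and Atr are 2 members whose ends differ. The authors deposited whole-number counts per gene, without normalization, and FPKM values, per the file headers.

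Counts were tested with edgeR 4.0.16 (R 4.3.3; quasi-likelihood, TMM, filterByExpr minimum count 10, no covariate, two-sided, Benjamini-Hochberg over 20865 genes, threshold 0.05). CPM uses deposited totals unless TMM scaling is named. DESeq2 1.42.0 and limma 3.58.1 on log2(FPKM + 0.5) with a mean of at least 1 FPKM, which leaves Atr out, were alternatives; there a fold change is on the log2(FPKM + 0.5) scale and understates low genes. The tests were tested on simulated data. Members had 483 counts or more in every library, and the SD from counting alone was 0.016 to 0.058 on the log2 scale, below the spread between libraries for all members except Rpap3. No pair of replicate libraries agreed within sampling noise (chi-square per gene 11.4 or more).

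The members and lists were chosen with earlier results of these data known. The rule for named genes took all members, Ruvbl1 and Ruvbl2, list members past the threshold or else the 2 with the smallest p of each pathway list, and the nearest gene to each member. Overlapping genes were looked up afterwards. Where a symbol had several rows the one with most counts was used. Oligodendrocyte (6), microglia (6), endothelial (6), ependymal (6), thalamus (7) and pituitary (4) markers were summed too: they ran from 2373 to 2865, 197 to 208, 145 to 190, 166 to 227, 406 to 648 and 1.91 to 8.55 CPM in Cre-labelled and from 2319 to 2857, 187 to 214, 144 to 174, 137 to 166, 555 to 790 and 2.67 to 31.8 CPM in GFP-labelled libraries.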

Additional observations from a re-analysis of the deposited data

How the results depend on the processing

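Of 167 member differences recomputed under 17 alternatives, 140 kept their sign and side of the threshold, 26 changed sign and 1 passed the threshold. The count of members called was 0 in edgeR and stayed 0 in every alternative except the one that left out the 3 libraries with other-organ transcripts, where it was 1 (Tti2). There 5 members were above 0 with a median of 0.004, Pih1d1, Atr and Smg1 turned to 0.19, 0.30 and 0.11, and 1059 of 22015 genes were called. With library totals instead of TMM 5 members were above 0, the median was -0.009, Pih1d1, Tti1 and Smg1 turned to 0.023, 0.023 and 0.027, and 1 gene was called; the median of all genes moved by a like amount, to 0.041 from -0.006 with TMM, so these signs changed with a shift that all genes share. In limma with pseudocounts of 0.5, 0.1 and 1, 5 members were above 0 and the medians were 0.011, 0.012 and 0.011 over 9 members, beside all-gene medians of 0.021, 0.023 and 0.019. Pih1d1 turned to 0.027, 0.03 and 0.024, Tti1 to 0.014, 0.015 and 0.013, and Smg1 to 0.011, 0.012 and 0.011; without a filter, again 5 members were above 0 and these genes were at 0.027, 0.014 and 0.011.

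Genes called in the whole table numbered 2, against 1322 in DESeq2, 22 in the robust fit, 9 with TMM factors set without CT010467, Lars2, Rn7sk and the mitochondrial rRNA genes, 15 in limma with a pseudocount of 0.1, 1 in limma without a filter and 1 in edgeR without a filter. With each library left out in turn they ran from 1 to 296 (without Cre-labelled library 1), members above 0 from 2 to 4, and the members' median from -0.071 to -0.015. Over the same settings Ruvbl2 ran from -0.029 (without GFP-labelled library 2) to 0.18, Pih1d1 from -0.14 to 0.14, Rpap3 from -0.001 to 0.048, Tti1 from -0.063 to 0.043, Atr from -0.45 to 0.195 and Smg1 from -0.092 to 0.074. The cause of the changes other than that shared shift was not tested. The labels give replicate numbers without saying whether these pair libraries. Deviations of same-numbered libraries correlated by -0.044, 0.012 and -0.022, which with 3 libraries per group cannot exclude a pairing. With the replicate block 0 members and 3 genes were called. There 2 members were above 0, the members' median was -0.057 and Ruvbl2 was at 0.087. Precision was lowest for Atr, whose unadjusted interval ran from a 46.3% decrease to a 32.5% increase.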
